A study of Mus musculus with 6 samples.

Results

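The genes described here encode 9 enzymes that handle methionine, betaine and homocysteine in liver: *Mat1a*, *Mat2a*, *Gnmt*, *Ahcy*, *Bhmt*, *Pemt*, *Chdh*, *Cbs* and *Cth*. They were read from the probes whose gene name on the array equals one of these symbols, 13 probes for the 9 genes among 41174 probes (27962 gene names) on each of 6 arrays. The livers came from male 129/Sv mice that were 6 to 8 weeks old when treatment began and that had all first been held on the control liquid diet. The alcohol group then had free access to the Lieber-DeCarli liquid diet with 4% ethanol, and the control group received an isocaloric liquid diet with maltose dextran in place of ethanol. Total RNA of 6 mice was pooled in equal amounts per group after 1, 2 and 4 months, so that there are 6 pools and no values of single mice. The alcohol and control pools of a month shared 2 two-color arrays, one with the alcohol pool in Cy5 and one with it in Cy3. The spread between these 2 arrays is technical, and within a month no test of alcohol between mice was possible. In a tissue pool, fewer cells of a type and less RNA per cell cannot be told apart.

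Methionine adenosyltransferases make S-adenosylmethionine, the methyl donor of the cell, from methionine. After the methyl group is passed on, the product is hydrolysed to homocysteine, which is either methylated back to methionine with betaine or folate as the donor, or moved into cysteine and glutathione by transsulfuration. The liver carries most of this traffic, and the cycle is a classical subject of work on alcohol-induced liver disease because S-adenosylmethionine, betaine and choline have all been studied as supplements.

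Between 73.3% and 90.3% of probes were well above background in a channel, and all 13 probes of the 9 genes were so in the alcohol and the control pool on every array, with 0 saturated spots. All 11 measured hepatocyte markers, and 27898 probes in all, were likewise well above background in both pools on every array. Over the latter, the paired arrays correlated in log2 alcohol over control at r = 0.16 at 1 month, at -0.30 after 2 months and at -0.32 after 4 (a description across probes, which share array and dye). The 1-month arrays lay on one slide and scan and the 2- and 4-month arrays on another, so that slide and 1 month against later months cannot be told apart.

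No sequence of the array probes was used. The 250 bases before the RefSeq start site (GRCm38.p6) were looked up for the 9 genes, and 7 of them had 10 entries. The following pair is shown because *Mat2a* had the highest mean ratio of the set at 4 months and because *Ahcy* was the gene that was positive on both arrays at 1 month and at 4 months; the arrays did not measure these regions. Each is written 5′ to 3′ on the minus strand, with matches on either strand to the TATA box (TATAAA), the CCAAT box (CCAAT) and the GC box (GGGCGG) in capitals.
*Mat2a*, chr6:72439557-72439806: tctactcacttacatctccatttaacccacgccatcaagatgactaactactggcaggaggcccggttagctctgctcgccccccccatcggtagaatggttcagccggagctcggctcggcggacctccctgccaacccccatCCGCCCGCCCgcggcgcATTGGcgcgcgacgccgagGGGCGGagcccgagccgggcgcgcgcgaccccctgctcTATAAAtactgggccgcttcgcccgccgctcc
*Ahcy*, chr2:155074498-155074747: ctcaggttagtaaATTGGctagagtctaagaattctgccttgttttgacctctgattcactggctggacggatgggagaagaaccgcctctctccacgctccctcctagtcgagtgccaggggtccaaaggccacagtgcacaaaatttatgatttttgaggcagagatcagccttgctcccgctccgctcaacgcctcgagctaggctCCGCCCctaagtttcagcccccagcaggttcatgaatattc
The *Mat2a* stretch held 1 TATA box, 1 CCAAT box and 3 GC box matches, of which 2 overlap each other, and 29 CpG against a median of 6 over all 32851 promoters of this length. The *Ahcy* stretch held 1 CCAAT box, 1 GC box and 9 CpG. Searched on both strands, the TATA box letters were found in 12.4%, the CCAAT box in 33.8% and the GC box in 32.7% of all promoters.

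None of the 9 genes was called at any month. A call required a mean ratio of at least 2-fold over the dye-swap pair with a technical error-model p under 0.05, a filter on measurement error and not a test of alcohol. Over all 41174 probes this filter took 0.206% at 1 month, 0.289% at 2 months and 0.622% at 4 months. At the lower mark of 1.5-fold in the mean of the pair, *Cth* at 1 month and *Mat2a* at 4 months were the only members to pass, so that 1, 0 and 1 of the 9 genes passed at 1, 2 and 4 months, where 1.21%, 3.09% and 4.4% of all probes passed. Over the 9 genes the log2 ratio had a median of 0.24 at 1 month, 0.01 after 2 months and 0.06 after 4, beside 0.00, 0.01 and -0.01 for the 37922 probes with a signal well above background in some channel. These medians depended on single arrays: with 1 array of the pair the 1-month median was 0.16 or 0.36, the 2-month median -0.34 or 0.18, and the 4-month median 0.18 or 0.23.

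The 2 arrays of a month often disagreed on the direction of these genes. At 1 month 5 of the 9 genes had the same direction on both arrays, 4 of them higher in alcohol (*Mat1a*, *Ahcy*, *Cbs* and *Cth*) and 1 lower (*Pemt*), where 45.8% of all 37922 probes had the same direction. At 2 months *Cbs* alone had the same direction, lower in alcohol, against 35.1% of all probes. At 4 months *Mat2a* and *Ahcy* had it, both higher, against 32.2%. None of the 13 probes had the same direction on all 6 arrays, which 3.86% of all probes had. Unlike the 13 probes, the probes behind these shares include some that were not well above background everywhere.

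**Figure D1:**
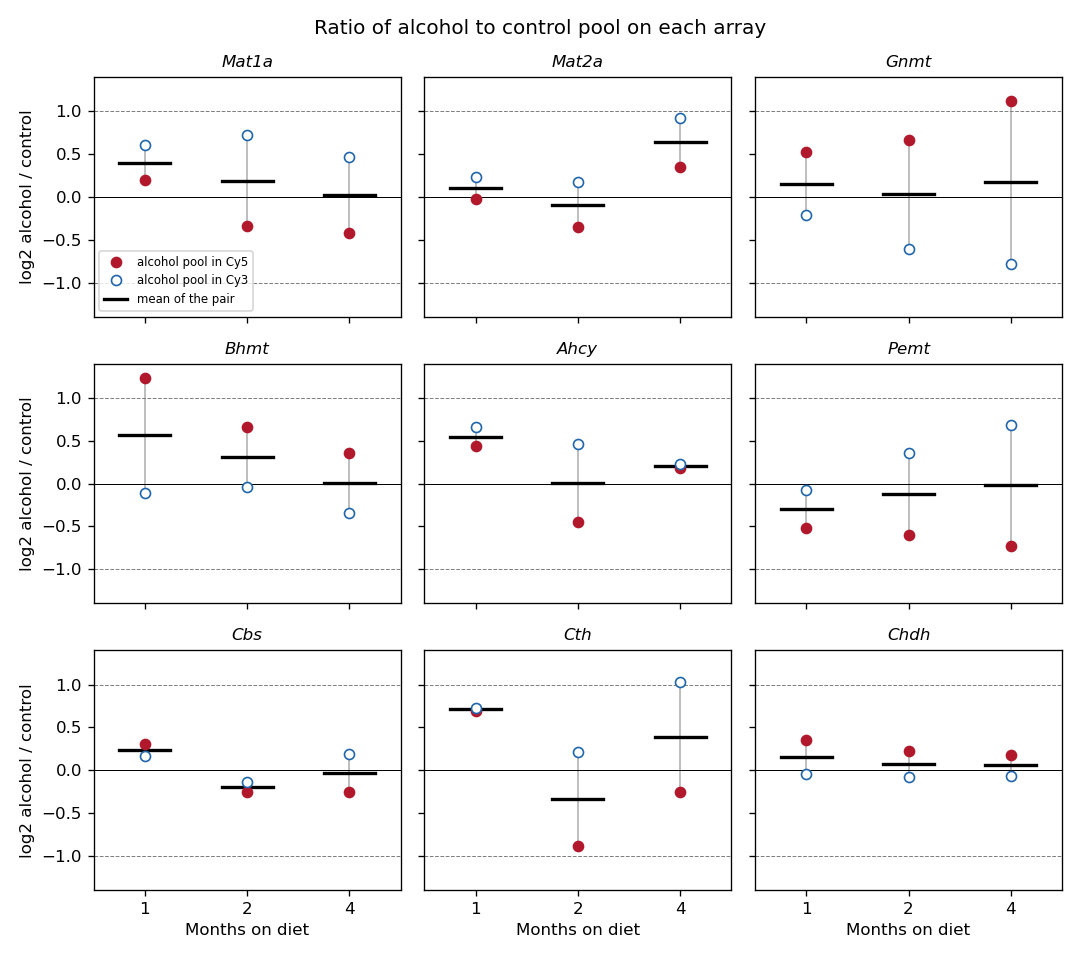
Log2 ratio of the alcohol over the control pool (vertical axis) for each of the 9 genes at 1, 2 and 4 months (horizontal axis), for the probe with the highest signal. Filled red points are arrays with the alcohol pool in Cy5, open blue points arrays with it in Cy3, black bars the mean of the pair and dashed lines 2-fold. No black bar reaches a dashed line, and at 2 months 8 of the 9 genes have their points on opposite sides of 0.

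*Mat1a* and *Mat2a* encode the catalytic subunits of the liver form and of the more widely expressed form of methionine adenosyltransferase. *Mat1a* had log2 ratios of 0.20 and 0.61 at 1 month with the alcohol pool in Cy5 and in Cy3, -0.34 and 0.73 at 2, and -0.42 and 0.47 at 4 months. Its mean was 0.40 ± 0.29 (SD of 2 arrays), a 1.32-fold ratio, at 1 month, and both arrays agreed in direction at that month alone. For *Mat2a* they were -0.02 and 0.24 at 1 month, -0.36 and 0.18 at 2, and 0.35 and 0.93 at 4 months. Its mean at 4 months was 0.64 ± 0.41, or 1.56-fold, larger than the spread of the pair, whereas at 1 and 2 months the arrays lay on opposite sides of 0.

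The difference between the paired isoforms, *Mat2a* minus *Mat1a* in log2 alcohol over control, was -0.22 and -0.37 at 1 month, -0.01 and -0.55 at 2, and 0.76 and 0.46 at 4 months. The difference was therefore negative on all 4 arrays of the first months and positive on both arrays of the last one. Its means were -0.29 ± 0.11, -0.28 ± 0.38 and 0.61 ± 0.22 (SD of 2 arrays). Each month is 1 pair of pools, and an exact two-sided sign test over 3 months cannot give a p below 0.25, so no test was made.

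The pool levels give both sides of the *Mat2a* ratio, each from 1 pool per month. A level here is log2 of the processed signal less the 75th percentile of its array and channel. In the alcohol pool *Mat2a* read 1.06 ± 0.17 (SD of 2 dyes), 0.88 ± 0.13 and 0.94 ± 0.10 at 1, 2 and 4 months. In the control pool it read 0.95 ± 0.01, 0.98 ± 0.26 and 0.31 ± 0.31. The control pool of 4 months was the lowest of the 6 and the only one apart from its neighbour in the order by more than the dye spread. Its level was 0.67 below that of the 2-month control pool, and was lower in both dyes, by 0.71 in Cy5 and 0.63 in Cy3. With other scalings of the channels this gap was between -0.78 and -0.65. On the first scale the summed level of hepatocyte markers was 8.30 and 8.26 in the 2-month alcohol and control pools. In those of 4 months it was 7.42 and 7.30, and its part in the *Mat2a* levels was not tested.

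At 4 months, when 0.622% of all probes were called, some markers of other cells also differed between the pools. Of the pancreatic acinar markers read, 11 were well above background in both pools on every array, and 1 was so on no array. Of 16 pancreatic acinar markers, 4 were called higher in alcohol (*Cela2a* 13.4-fold, *Pnliprp1* 5.36-fold, *Cpb1* 4.51-fold and *Reg1* 3.74-fold), and the summed level of the list was 5.02 in the alcohol and 4.73 in the control pool, beside 4.05 to 4.58 in the 4 pools of the first months. Of 9 blood markers, *S100a8* was called higher (2.40-fold) and *Alas2* lower (log2 ratio -2.00). Their part in the *Mat2a* ratio was not tested.

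*Gnmt* encodes glycine N-methyltransferase, an abundant liver enzyme that consumes S-adenosylmethionine, and *Ahcy* encodes the hydrolase that releases homocysteine from S-adenosylhomocysteine. In *Gnmt* the log2 ratios were 0.53 and -0.21 at 1 month, 0.67 and -0.61 at 2, and 1.12 and -0.78 at 4 months, always positive with the alcohol pool in Cy5 and negative with it in Cy3. Its means of 0.16, 0.03 and 0.17 were all within the spread of their pair, which was 0.52, 0.91 and 1.34. The main probe of *Ahcy* read 0.44 and 0.66 at 1 month, -0.45 and 0.46 at 2, and 0.18 and 0.23 at 4 months. *Ahcy* was thus higher in the alcohol pool on both arrays at 1 month, by a mean of 0.55 ± 0.16 or 1.46-fold, and at 4 months, by 0.20 ± 0.03 or 1.15-fold.

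*Ahcy* had 3 probes, which agreed closely at 1 month and less so at 4 months. Their 1-month means were 0.55, 0.43 and 0.37, each positive on both arrays. At 4 months the second probe (A_51_P473528) gave 1.20 and -0.39, whereas the third probe (A_51_P473533) gave 0.10 and 0.13, close to the main one. At 2 months all 3 means lay between 0.01 and 0.03.

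*Bhmt*, *Pemt* and *Chdh* belong to the choline branch: choline dehydrogenase begins the oxidation of choline to betaine, betaine-homocysteine methyltransferase uses betaine to remethylate homocysteine, and phosphatidylethanolamine N-methyltransferase spends S-adenosylmethionine to make phosphatidylcholine. The log2 ratio of *Bhmt* was 1.23 and -0.10 at 1 month, 0.67 and -0.04 at 2, and 0.36 and -0.34 at 4 months. The 1-month mean of 0.56 ± 0.94 therefore rested on the array with the alcohol pool in Cy5. For *Pemt* they were -0.52 and -0.07 at 1 month, -0.60 and 0.36 at 2, and -0.72 and 0.69 at 4 months. Its 1-month mean of -0.30 ± 0.31 was the only negative one of the 9 genes at that month and was smaller than its spread, and the second *Pemt* probe gave -0.24 ± 0.32. *Chdh* gave 0.36 and -0.04 at 1 month, 0.22 and -0.08 at 2, and 0.18 and -0.06 at 4 months, and its second probe gave means between -0.04 and 0.06.

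*Cbs* and *Cth* encode cystathionine beta-synthase and cystathionine gamma-lyase, the enzymes of transsulfuration. *Cth* had log2 ratios of 0.70 and 0.73 at 1 month, a mean of 0.71 ± 0.02 or 1.64-fold, the largest mean and the smallest spread of the 9 genes at that month. At 2 months it was -0.88 and 0.22 and at 4 months -0.26 and 1.04, with the arrays on opposite sides of 0. In pool levels *Cth* stood at 2.90 ± 0.02 in the 1-month alcohol pool and 2.19 ± 0.05 in the 1-month control pool. *Cbs* gave 0.31 and 0.16 at 1 month, -0.25 and -0.14 at 2, and -0.26 and 0.19 at 4 months. *Cbs* was thus higher in the alcohol pool on both arrays at 1 month, by 0.24 ± 0.10 or 1.18-fold, and lower on both at 2 months, by a mean of -0.19 ± 0.08.

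At 1 month, when 0.206% of all probes were called, some blood and myeloid markers also differed between the pools. *Hbb-b1* was called 3.91-fold, *Hba-a1* 2.84-fold and *Adgre1* 2.35-fold higher in alcohol, that is 2 of 9 blood and 1 of 11 Kupffer and myeloid markers. The summed level of the blood list was 6.50 in the alcohol and 4.95 in the control pool, beside 5.05 to 5.94 in the 4 later pools. The median of 9 endothelial markers at 1 month was 0.31, with 0 called. Those of the 9 blood and the 11 Kupffer and myeloid markers were 0.07 and 0.26. The part of these markers in the 1-month ratios of *Cth*, *Ahcy* and *Mat1a* was not tested.

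The difference between the 2 arrays of a month, divided by 2, is the part of a ratio that turned with the dyes. In size it exceeded the mean ratio for 4, 8 and 7 of the 9 genes at 1, 2 and 4 months, where it did so for 48.0%, 61.8% and 65.7% of all 37922 probes. Its median size over the 9 genes was 0.20, 0.45 and 0.35, beside 0.10, 0.18 and 0.22 over all probes. These all-probe values include probes that were not well above background everywhere. For 8 of the 9 genes, all but *Cbs*, the dye part kept its sign at the 3 months, which 61.2% of the 27898 probes well above background everywhere did. It was positive for *Gnmt*, *Bhmt* and *Chdh* and negative for *Mat1a*, *Mat2a*, *Ahcy*, *Pemt* and *Cth*. Probes of one gene could differ in it: A_51_P473528 of *Ahcy* had a positive and the other *Ahcy* probes a negative dye part, and the *Chdh* probes also had opposite signs.

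**Figure D2:**
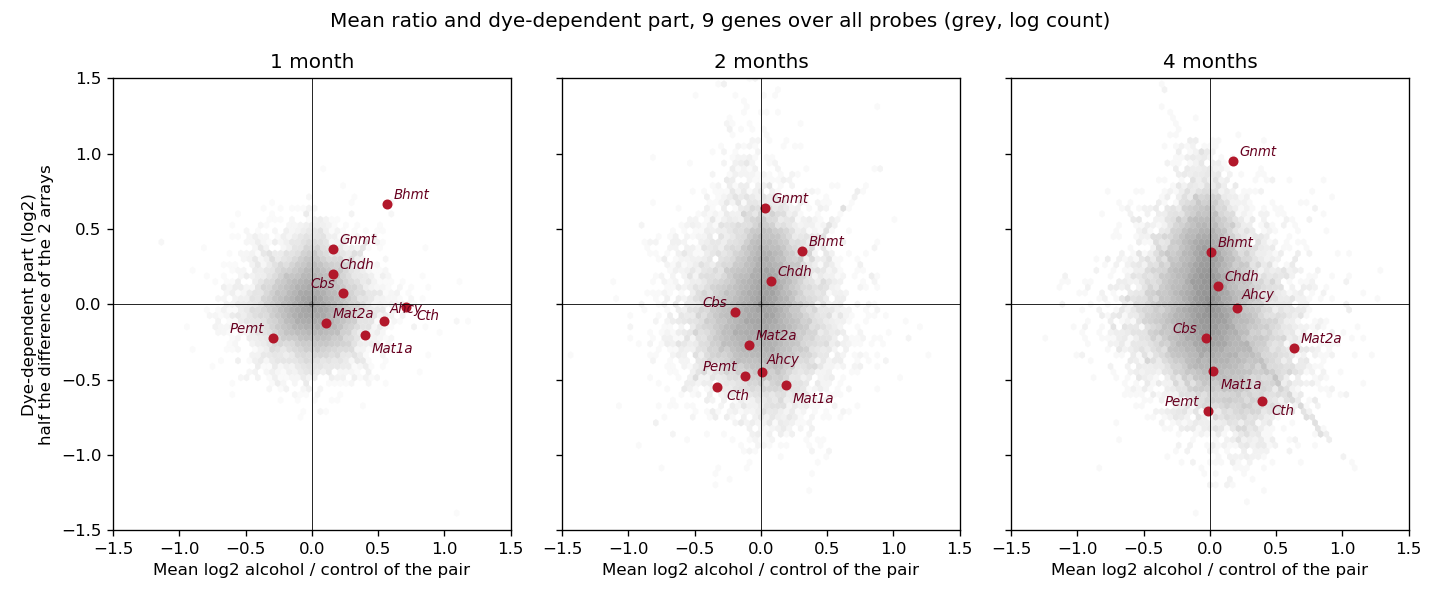
Mean log2 ratio of alcohol over control of the dye-swap pair (horizontal axis) against the difference of its arrays divided by 2 (vertical axis, log2) at 1, 2 and 4 months. Red points are the 9 genes and grey shading the count of all 37922 probes on a log scale. *Gnmt* lies high and *Pemt* low on the vertical axis at every month, and *Mat2a* at 4 months lies to the right at 0.64.

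The 3 monthly means differ in time on the diet, and each is 1 pair of pools. Taking them as replicates, limma gave no member an adjusted p under 0.05, and 0% of the 37922 probes passed as well. The smallest adjusted p among the 9 genes was 0.62, and 0 of them had an unadjusted p under 0.05 at their main probe, where 7.98% of all probes did. This count changed with the processing: with normexp and loess 4 of the 9 had one (*Ahcy*, *Bhmt*, *Gnmt* and *Mat1a*), where 9.02% of all probes did, and with only probes well above background in both channels 2 did (*Bhmt* and *Mat1a*), against 10.2%. A second *Ahcy* probe, not its main one, had an unadjusted limma p of 0.040 without any such change. The mean log2 effects over the months were 0.30 ± 0.12 (SE) for *Bhmt*, 0.26 ± 0.21 for *Cth*, 0.25 ± 0.12 for *Ahcy*, 0.22 ± 0.15 for *Mat2a*, 0.21 ± 0.09 for *Mat1a*, 0.12 ± 0.06 for *Gnmt*, 0.10 ± 0.06 for *Chdh*, 0.00 ± 0.10 for *Cbs* and -0.14 ± 0.08 for *Pemt*. Their 95% intervals all included 0 in this fit. With normexp and loess those of *Ahcy* (0.03 to 0.51), *Bhmt* (0.07 to 0.56), *Gnmt* (0.01 to 0.29) and *Mat1a* (0.03 to 0.42) lay above 0. So did that of *Bhmt* when the 6 arrays were fitted singly, where 9.27% of all probes had an unadjusted p under 0.05. In that fit the correlation within a month was -0.001, so that repeat arrays of the same pools counted almost as separate replicates. Those of *Bhmt* and *Mat1a* did with both channels well above background, against 10.2%, and without month 4, against 4.12%. Those of *Ahcy* (0.04 to 0.71) and *Cth* (0.22 to 0.88) did without month 2, against 4.91%. None did without month 1, against 11.4%, or with error weighting, against 6.97%. In the first fit the widest interval, that of *Cth*, ran from -0.28 to 0.80, and those of *Bhmt* and *Mat2a* reached 0.60 and 0.61. A change of 1.5-fold over the months was thus neither shown nor excluded for these genes. These means depended on single months: with 1 month left out, that of *Cth* ran from 0.03 (without month 1) to 0.55 (without month 2), that of *Mat2a* from 0.01 (without month 4) to 0.37 (without month 2), and that of *Cbs* from -0.11 (without month 1) to 0.10 (without month 2). Without month 1 the effect of *Ahcy* was 0.11, of *Bhmt* 0.16, of *Mat1a* 0.11 and of *Pemt* -0.07.

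A slope of the ratio on log2 month likewise gave an adjusted p under 0.05 for no member and for 0% of all probes. The slope of *Bhmt* was -0.28 ± 0.08 (SE) per doubling of time, from its means of 0.56, 0.31 and 0.01, with an adjusted p of 0.64 and an unadjusted limma p of 0.024. *Bhmt* was the 1 gene of 9 with an unadjusted p under 0.05 for the slope, where 7.42% of all probes had one. With normexp and loess 3 did (*Bhmt*, *Mat1a* and *Mat2a*), where 9.12% of all probes did, with both channels well above background 2 did (*Bhmt* and *Mat1a*), against 7.77%, and with error weighting 0 did, against 7.55%. The lowest adjusted p of a member under any of these settings was 0.34 for the slope and 0.45 for the effect. The slope of *Mat2a* was 0.26 ± 0.15, with an adjusted p of 0.81, and which of these slopes was the larger in size depended on the processing (0.27 for *Mat2a* against -0.26 for *Bhmt* with normexp and loess).

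The pool levels of several of these genes also differed between months. *Gnmt* read 5.94, 5.39 and 4.41 in the alcohol pools and 5.78, 5.37 and 4.24 in the control pools at 1, 2 and 4 months. *Bhmt* read 6.07, 5.46 and 4.61 in the alcohol and 5.51, 5.15 and 4.60 in the control pools. *Ahcy* read 5.75, 5.50 and 4.67 in the alcohol and 5.21, 5.50 and 4.46 in the control pools. By these probes, all 3 genes were lowest in both 4-month pools, with the channels set to a common 75th percentile. The third *Ahcy* probe, A_51_P473533, was lowest at 1 month instead, at 4.05 in the alcohol and 3.69 in the control pool, beside 4.54 and 4.43 at 4 months.

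*Cbs* ran the other way, with 2.91, 3.13 and 3.83 in the alcohol and 2.68, 3.33 and 3.86 in the control pools. *Mat1a* lay between 3.89 and 4.64, and *Pemt* between 3.74 and 4.25, with no neighbouring pools in their order apart by more than the larger of their dye SDs. Over the 9 genes, 12 of the 45 neighbouring pairs of pools were apart by more than that spread, and 33 were not. The 11 hepatocyte markers had summed levels of 8.26 to 8.36 in the pools of 1 and 2 months and of 7.30 and 7.42 in those of 4 months, and their part in the lower *Gnmt*, *Bhmt* and *Ahcy* levels was not tested. With loess and Aquantile scaling of the channels the 4-month minus 2-month difference in the control pools was -0.45 instead of -1.13 for *Gnmt*, 0.01 instead of -1.04 for *Ahcy* and 0.38 instead of -0.55 for *Bhmt*, so that for *Ahcy* and *Bhmt* the direction between months depended on the scaling.

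**Figure D3:**
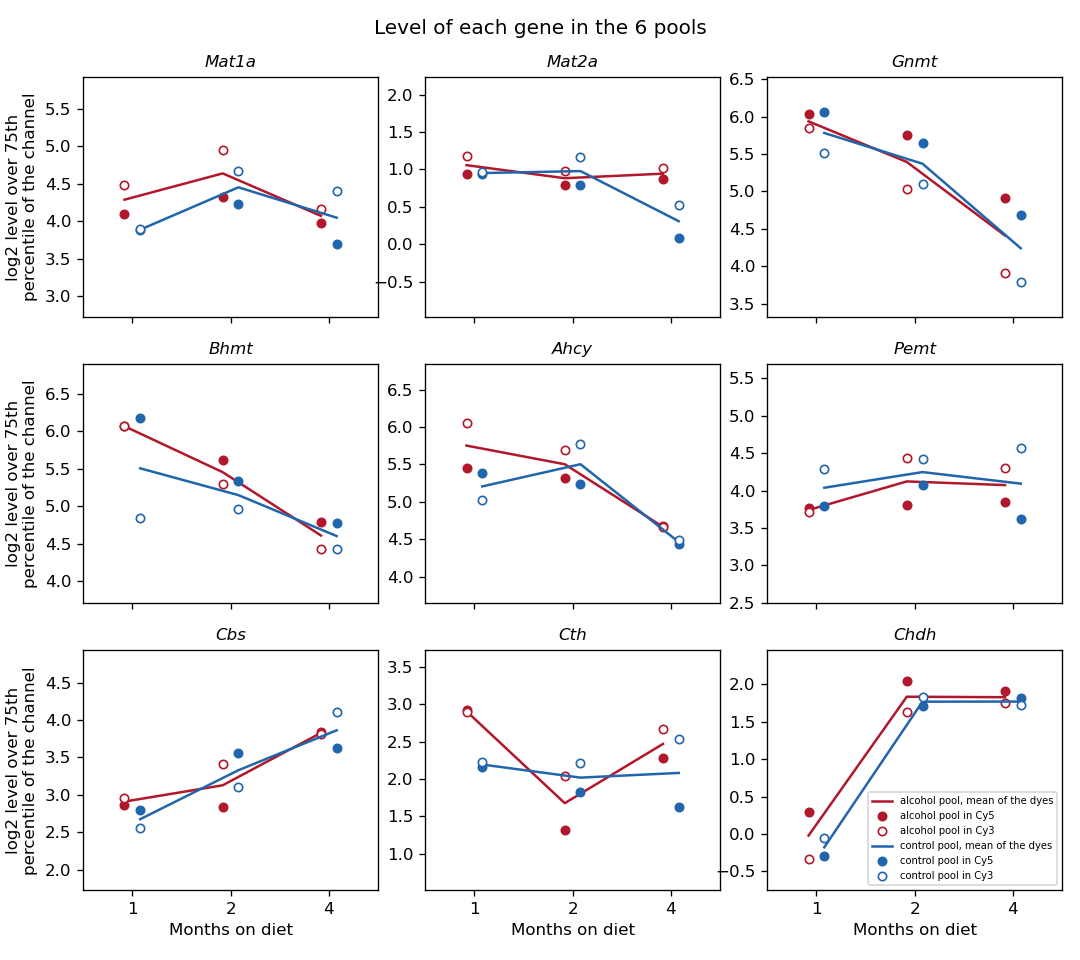
Level of each gene (log2 of the processed signal over the 75th percentile of its array and channel, vertical axis) in the alcohol (red) and control (blue) pools at 1, 2 and 4 months. Filled points are Cy5, open points Cy3, and lines join the means of the dyes; every panel spans the same height. The 4-month control pool of *Mat2a* is at 0.31, and *Chdh* stands near 0 at 1 month and near 1.8 later.

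*Chdh* had the widest range of pool levels of the 9 genes with this scaling, 2.01, where the median range of the 27898 probes was 0.93. With loess and Aquantile the ranges of *Cth* and *Chdh* were 1.55 and 1.54. It read -0.02 and -0.18 in the alcohol and control pools of 1 month and between 1.77 and 1.83 in the 4 later pools. Its second probe, A_51_P292550, went the opposite way, from -0.19 and -0.22 at 1 month to between -1.43 and -1.36 later. Later levels were more than 1 above those of 1 month for 9.45% of the 27898 probes in the alcohol and 9.47% in the control pools. As slide and month cannot be told apart here, the 3 genes whose levels over the 6 pools were most like those of *Chdh* (*1700001P01Rik*, *Ctsb* and *Trpa1*, each at Pearson r = 1.00 over 6 pools) stand among 3535 probes with r over 0.95.

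Around these 9 genes, lists of one-carbon genes were read in the same way, 1 probe per gene. Of 86 further genes of methyl transfer, choline and betaine, transsulfuration and cysteine, folate, polyamine and cobalamin, 84 were measured and 0 were called at any month. The median of their log2 ratios at 1, 2 and 4 months was 0.05, -0.05 and 0.01. With limma, which tested 83 of them (*Dnmt3b* was not well above background on any array), 0 had an adjusted p under 0.05 for the effect or the slope, and 6 (7.23%) had an unadjusted p under 0.05 for the effect, close to the 7.98% of all probes.

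Counted with the members they hold, the medians of the 23 methionine cycle and methyl transfer genes were 0.02, -0.10 and -0.01 at 1, 2 and 4 months, those of 18 choline and betaine genes 0.16, -0.02 and 0.00, and those of 13 transsulfuration and cysteine genes 0.22, -0.11 and 0.03. Those of 22 folate genes were 0.05, -0.02 and 0.08, of 11 polyamine and methionine salvage genes -0.03, -0.03 and -0.02, and of 9 cobalamin genes 0.10, -0.04 and 0.02. The median farthest from 0 was that of transsulfuration at 1 month, to which *Cth* and *Cbs* themselves contribute. At 4 months every list median was negative with the alcohol pool in Cy5 and positive with it in Cy3 (folate -0.23 and 0.35). At 2 months all lists but polyamine and cobalamin were split in this way (methionine cycle -0.31 and 0.12). Of the 84 genes, *Mthfs*, which converts 5-formyltetrahydrofolate to the methenyl form, was the only 1 that was well above background everywhere and also had the same direction on all 6 arrays. Its log2 ratio was -0.01 and -0.10 at 1 month, -0.26 and -0.19 at 2, and -0.23 and -0.25 at 4 months, with a mean effect of -0.17 ± 0.07 (SE) and a limma adjusted p of 0.62. A second *Mthfs* probe did not keep 1 direction.

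**Figure D4:**
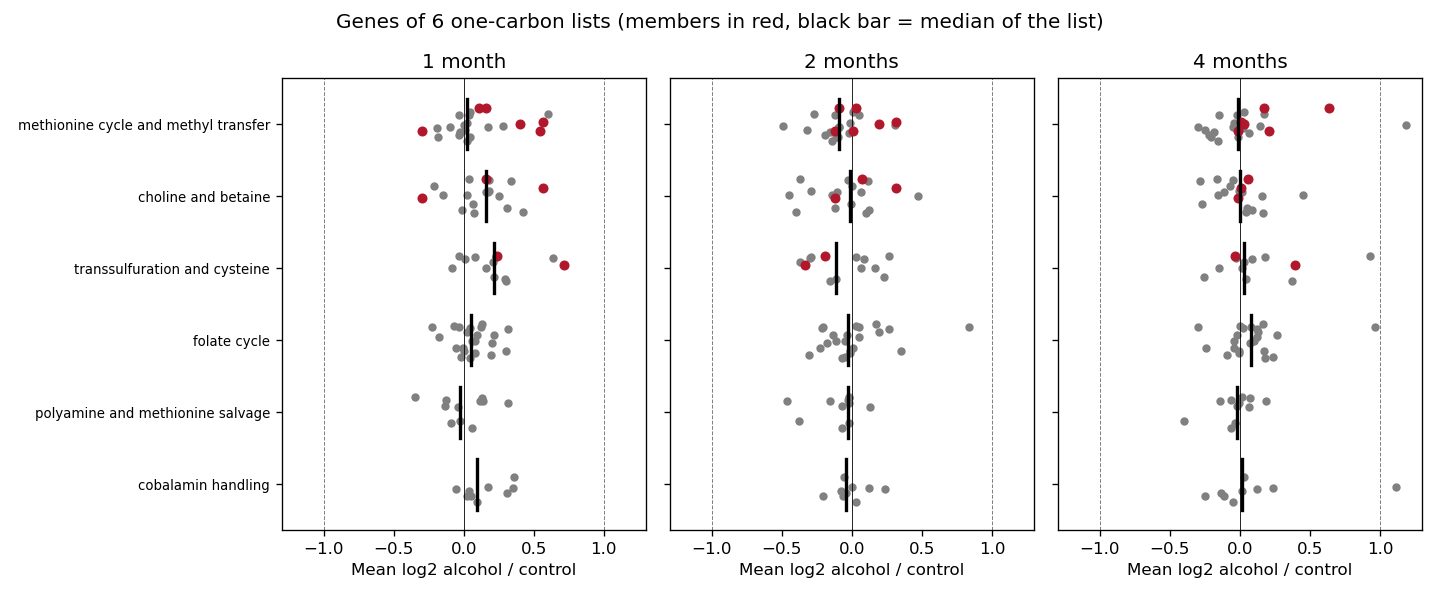
Mean log2 ratio of alcohol over control (horizontal axis) of each gene of 6 one-carbon lists (rows) at 1, 2 and 4 months. Red points are the 9 members, grey points the other genes, black bars the median of each list and dashed lines 2-fold; vertical jitter within a row has no meaning, and a gene in 2 lists is drawn in both. The list medians lie between -0.11 and 0.22, the highest being that of transsulfuration and cysteine genes at 1 month.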

How the data were processed

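Pooled liver RNA of 6 mice per group was measured at 1, 2 and 4 months on Agilent mouse 4x44K two-color arrays with a dye swap. The authors deposited Feature Extraction 9.1.1.1 output, that is processed intensities (background subtracted, dyes normalized) and per spot a log10 Cy5/Cy3 ratio and its modeled error. The deposited value table, with a median of 0 on every array, holds the same log10 ratios as alcohol over control (100% of 40929 single-spot probes within 0.02 log2).

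Ratios were turned to alcohol over control by the labelled dyes, put on the log2 scale, averaged over spots and over each pair. For the 13 probes the deposited log ratio equals that of the processed intensities. Control spots were dropped, and 0 outlier flags were found. The probe with the highest mean signal stands for a gene. Of 41174 probes, 25510 carry a RefSeq accession and 22944 matched a symbol. Effects and slopes over months used limma 3.58.1 in R 4.3.3 with Benjamini-Hochberg adjustment over 37922 probes, after a run on simulated data. Members and lists were chosen with earlier results of these data known. Genes named are all members, listed one-carbon genes that were called, the 8 with the largest mean ratio among those well above background with 1 direction on all 6 arrays (1 qualified), and the 3 genes most like the called member or, as none was called, like the member with the widest range of levels. Alternatives were normexp with offset 50 and loess, the value table, error weighting, centring, all probes of a gene, other filters, scalings and thresholds, and leaving out arrays or months. The number of arrays limits the precision.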

Additional observations from a re-analysis of the deposited data

Results flagged for a closer look

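*Cbs* was the one member whose arrays all pointed one way at a month and all the other way at another: its mean log2 ratio was 0.24 at 1 month and -0.19 at 2 months, 0.43 apart. The difference was not tested, and slide and month cannot be told apart for it.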

How the results depend on the processing

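None of the 9 genes had a limma adjusted p under 0.05 for the effect (12 alternatives) or the slope (7 alternatives). No member was called under normexp and loess, the value table, error weighting, centring, fold alone, all probes of a gene or the stricter background filter. With a 1.5-fold threshold and the error-model p, 1 gene was called at 1 month (*Cth*), 0 at 2 months and 1 at 4 months (*Mat2a*), where 0.673%, 1.43% and 2.66% of all probes were. With 1 array of the pair left out, the count was 0 to 1 at 1 month (*Bhmt*, without the array with the alcohol pool in Cy3), 0 at 2 months and 1 to 1 at 4 months (*Cth* without the one with it in Cy5, *Gnmt* without the other), where 0.231% to 0.253%, 1.26% to 1.38% and 1.33% to 3.89% of all probes were called, and the median of the 9 genes was 0.16 to 0.36 at 1 month, -0.34 to 0.18 at 2 months and 0.18 to 0.23 at 4 months. Over the other alternatives the 1-month ratio of *Cth* was 0.71 to 0.73 and the 4-month ratio of *Mat2a* 0.64 to 0.65. Leaving out 1 month, the mean effect of *Cbs* was -0.11 to 0.10, that of *Cth* 0.03 to 0.55 and that of *Mat2a* 0.01 to 0.37; the lowest of *Cbs*, without month 1, is also the value of the slide of 2 and 4 months, and the slope of *Gnmt* was -0.043 with error weighting; the cause was not tested. The fit with dye orientation as a replicate block and month as a random block over 6 arrays called 0 members and 20 probes. Its month block had a correlation of -0.001, so that the arrays of a month, which repeat the same pools, counted almost as separate replicates. Over all probes the effect called 0 probes, 9 with normexp and loess and 6 with the stricter background filter, and the slope 0 and, with normexp and loess, 50. A fit with slide as a random block could not be fitted. The range of pool levels moved by more than the dye spread in 14 of 18 alternatives.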

Other observations

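Of the 84 listed one-carbon genes that are not members, 6 had a mean ratio of at least 1.5-fold at some month, and 3 of these were well above background in the alcohol and the control pool on every array. By month the share was 2.38% of the 84 at 1 month, against 1.21% of all probes, then 1.19% against 3.09% at 2 months and 4.76% against 4.4% at 4 months. The genes named here were chosen after their values were seen. *Csad*, which makes hypotaurine from cysteine sulfinate on the way to taurine, had log2 ratios of 0.70 and 1.16 at 4 months, a mean of 0.93 or 1.91-fold, beside -0.09 and 0.01 at 1 month. Its 2-month arrays gave 0.08 and 0.45. A second *Csad* probe that was not well above background everywhere gave 0.35 and -0.12 at 4 months. *Ethe1*, a mitochondrial enzyme of sulfide oxidation, had log2 ratios of 0.53 and 0.74 at 1 month, turned to -0.37 and -0.23 at 2 months, and split into -0.28 and 0.22 at 4 months. Its second probe gave 0.84 and 0.87 at 1 month, then -0.09 and -0.39 at 2 months, and its 4-month arrays (-0.25 and 0.31) likewise had opposite signs. *Nnmt*, which methylates nicotinamide, had 0.43 and 0.77 at 1 month, then -0.41 and -0.13 at 2 months, and its 4-month arrays gave 0.01 and 0.33. The limma adjusted p for the effect over the months was 0.65 for *Csad*, 0.90 for *Ethe1* and 0.81 for *Nnmt*, and none was called.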
